A study of Mus with 3 samples.

Results

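The transcripts of 6 genes were followed across the cells of tumors from mice of 3 genotypes: Rpl29, Nnt and the long noncoding RNAs (lncRNAs) Gm43305, Gm42031, AA465934 and Gm46620. They are 6 of the 32285 genes in the count matrix and were listed by name as transcripts that might mark the genetic background of a host mouse and not the state of a cell. The list was drawn up with results of these data in view. Its members were selected on the ratios between RARα-KO and WT T cells and myeloid cells, so those ratios are given as a description and without a test. Through that selection, 5 of the 6 differed between RARα-KO and WT T cells. In CTLs (CD8 T cells) the 4 lncRNAs were past 2-fold higher in RARα-KO, as were 1.21% of all genes tested. Rpl29 was past 2-fold lower there, as were 1.02%. Nnt was close to undetected in every group, so the data did not bear out its place on the list.

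Rpl29 encodes a protein of the large ribosomal subunit. Nnt encodes nicotinamide nucleotide transhydrogenase, an enzyme of the inner mitochondrial membrane that uses the proton gradient to make NADPH, which feeds the glutathione and thioredoxin systems that remove peroxides. C57BL/6J mice carry a deletion of several Nnt exons that C57BL/6N mice lack, so the gene is widely used to tell these substrains apart. Mice that descend from different colonies, or that carry a segment from the strain in which an allele was made, can differ in the sequence or level of single transcripts in all their cells, whatever gene was targeted. A tumor line that was injected into such mice keeps its own genome, so its cells serve as a comparison within each tumor.

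The tumors came from MC38, a mouse colon carcinoma line, and were taken on day 16 after injection from 3 kinds of mice. The paper does not state the background of the RARα-KO and RARα-TG lines. RARα-KO mice carried dLck-Cre, a Cre recombinase under the distal Lck promoter, together with floxed alleles of Rara, the gene of retinoic acid receptor α. RARα-TG mice carried Rara under the CD2 promoter. Both promoters act mainly in T cells, so the targeted gene was not meant to change in macrophages, dendritic cells or tumor cells. The study names C57BL/6 mice from Taconic Biosciences and dLck-Cre mice from the Jackson Laboratory as its WT strains. Which of them gave the WT cells and how many mice were used were not given in the sources used here. The tumor of a genotype means below all cells under its hashtag, from 1 or more mice. Age was given only as a range of weeks for most experiments, not for these mice. For each genotype, 30000 sorted T cells were combined with 10000 total cells of the tumor. Cells were tagged with 1 of 3 hashtag antibodies (C0301 for WT, C0302 for RARα-KO, C0303 for RARα-TG) and all were run together as 1 pooled 5′ library (10x Genomics). Each genotype is thus 1 sample without a replicate. Genotype, colony of origin, animal and hashtag cannot be told apart.

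The matrix held 46394322 unique molecular identifiers (UMIs, counts of single RNA molecules), and 5586 barcodes were called as cells, with a median of 4822 UMIs. By hashtag, 1928 cells were WT, 2107 RARα-KO and 895 RARα-TG, and another 656 had no single hashtag. Levels are sums of UMIs over the cells of a group, per 1000000 UMIs of that group (CPM), and 95% intervals are exact and cover counting error only. T cells were gated into CTLs (Cd8a without Cd4), CD4 T cells and other T cells. Macrophages and dendritic cells were named from 7 and 6 known markers among their 10 leading genes. A cluster led by Ly6d and Siglech had 1 dendritic marker there and is called the Siglech cluster. The cells in which injected MC38 cells would lie formed a cluster led by Col3a1, Ccn1, Ly6c1 and Sparc. None of the MC38 markers listed for this work was among its leading genes, and 2 of those genes were fibroblast markers. In WT, the MC38 markers Ccnd1, Tnfrsf12a, Cav1 and Hmga2 stood at 386, 360, 191 and 116 CPM. The listed MC38 markers Krt8, Krt18, Krt7, Krt19, Epcam, Cldn4 and Cdkn2a had 0 to 2 UMIs there. Of the fibroblast markers, Dcn stood at 524 CPM and Pdgfra at 11.4 CPM, and Lum had 0 UMIs. Whether these are MC38 cells was not settled, so the cluster is called the Col3a1 cluster here. Transcripts of the Y-linked genes Ddx3y, Eif2s3y, Kdm5d and Uty, summed, stood at 99.1, 116 and 110 CPM in T cells of WT, RARα-KO and RARα-TG. In the Col3a1 cluster they stood at 0.694 and 1.61 CPM in WT and RARα-KO and at 0 UMIs in RARα-TG, so most of its cells did not share the Y-linked expression of the host cells. Rara itself differed little between RARα-KO and WT CTLs (638 and 480 UMIs, log2 ratio -0.12, -0.29 to 0.05), and the 5′ counts do not show whether the deleted part is covered, so they do not check the RARα-KO label. In RARα-TG CTLs the log2 ratio of Rara to WT was 1.16 (0.85 to 1.45).

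Rpl29 (ENSMUSG00000048758) lies on chromosome 9 at chr9:106428889-106431568 in GRCm38.p6. Nnt (ENSMUSG00000025453) lies at chr13:119335527-119409257. Of the lncRNA genes, Gm43305 (ENSMUSG00000105703) lies at chr14:54292441-54297488, Gm42031 (ENSMUSG00000110386) at chr8:85125923-85131814 and AA465934 at chr11:83291699-83294637. Gm46620 had no entry in the reference. The members with a position thus lie on 5 chromosomes. AA465934 is the only one on the chromosome of Rara, 15.6 Mb away from it. By position, AA465934 overlaps the lncRNA AI450353 and the small nucleolar RNA Snord7. Strands were not compared, and whether reads of these genes mix in its counts was not examined.

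Rpl29 was 9.87 times lower in RARα-KO CTLs than in WT CTLs, and it was low in the other T cells, macrophages and dendritic cells of that tumor as well. CTLs had 3176 CPM of Rpl29 in WT (17828 UMIs), 322 CPM in RARα-KO (2612 UMIs) and 3075 CPM in RARα-TG (1853 UMIs). The WT and RARα-TG levels lay side by side and RARα-KO lay far below both. Against WT CTLs, the log2 ratio of RARα-KO was -3.30 (-3.36 to -3.24) and that of RARα-TG was -0.05 (-0.12 to 0.02). CD4 T cells had 2296, 298 and 2070 CPM in WT, RARα-KO and RARα-TG. The other T cells had 2587, 316 and 2066 CPM in the same order. The log2 ratios of RARα-KO to WT in these groups were -2.94 (-3.10 to -2.79) and -3.03 (-3.20 to -2.87). Among RARα-KO T cells, 25.3% had no UMI of Rpl29, against 2.06% in WT and 3.82% in RARα-TG.

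The low Rpl29 level of the RARα-KO tumor was also seen in cells that are not T cells. Macrophages had 1451 CPM in WT (836 UMIs), 162 CPM in RARα-KO (149 UMIs) and 1792 CPM in RARα-TG (441 UMIs). Dendritic cells had 1611 CPM in WT (363 UMIs in 21 cells), 205 CPM in RARα-KO (51 UMIs in 27 cells) and 2480 CPM in RARα-TG (84 UMIs in 4 cells). The Siglech cluster had 1700, 174 and 1793 CPM. The RARα-KO level was 11.2% of WT in macrophages, 12.7% in dendritic cells and 10.2% in the Siglech cluster, next to 10.1% in CTLs and 13.0% in CD4 T cells. Neutrophils held 4, 1 and 9 UMIs of Rpl29 in WT, RARα-KO and RARα-TG, too few to read a direction. By ratio alone Rpl29 was past 2-fold lower in RARα-KO neutrophils, as were 6.94% of genes (7.59% were higher), and past 2-fold higher in RARα-TG neutrophils, as were 6.39% (3.59% were lower).

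The Col3a1 cluster did not have this difference. Its cells had 1933 CPM of Rpl29 in the WT tumor (16711 UMIs), 1832 CPM in the RARα-KO tumor (7959 UMIs) and 1732 CPM in the RARα-TG tumor (649 UMIs). All 3 levels lay within 1.12-fold of each other, and the log2 ratio of RARα-KO to WT was -0.08 (-0.12 to -0.04). Rpl29 in the Col3a1 cluster of the RARα-KO tumor was 576% of its level in T cells of the same tumor. In the WT tumor the Col3a1 cluster reached 65.2% of the T cell level.

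**Figure D1:**
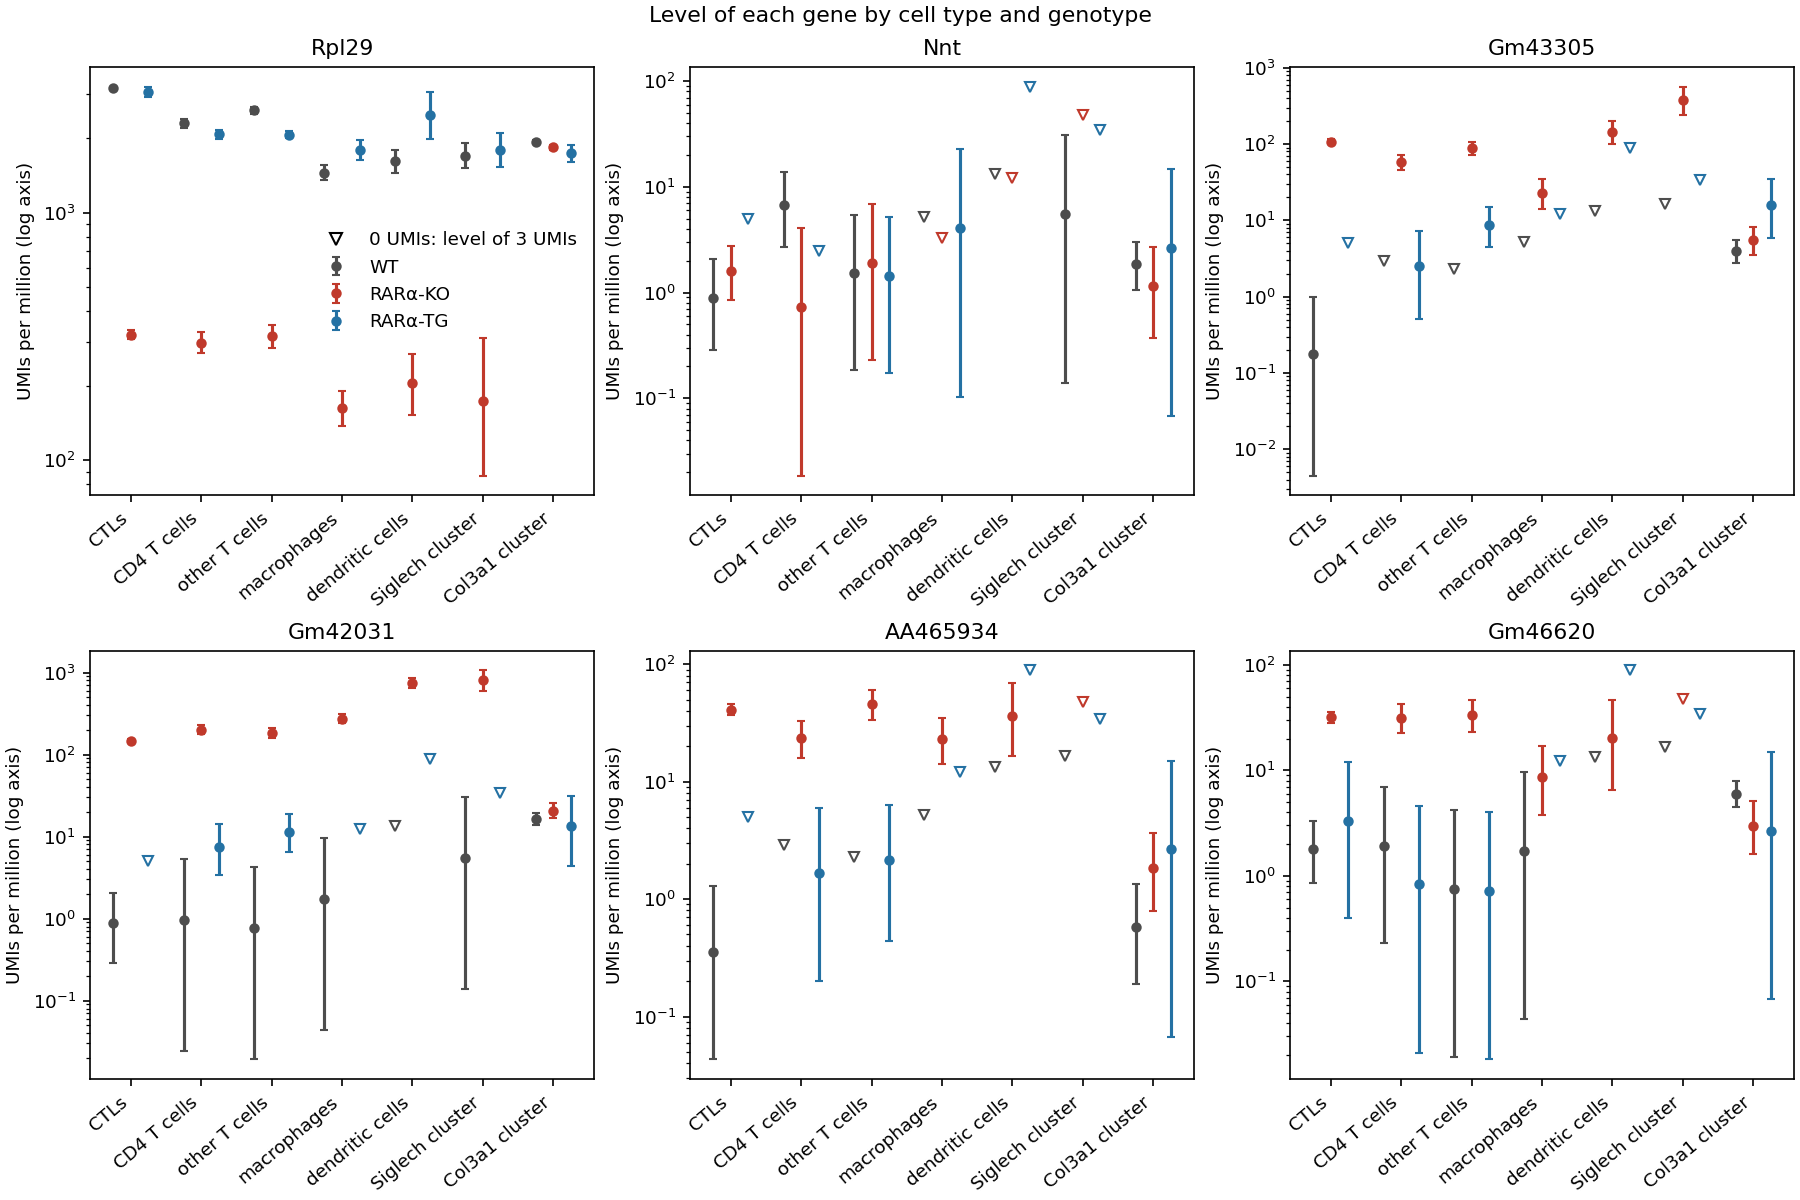
Level of each gene in 7 groups of cells (x axis) by genotype, in UMIs per 1000000 UMIs (CPM) on a log axis. Points are sums over the cells of a group, bars are exact Poisson 95% intervals, and open triangles mark groups with 0 UMIs at the level that 3 UMIs would have. RARα-KO stands apart from WT and RARα-TG for Rpl29 and for Gm42031 in every host cell type shown, while in the Col3a1 cluster the intervals of Gm43305 and Gm42031 of RARα-KO and WT overlap and Rpl29 differs by -0.08 on the log2 scale.

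In WT, Rpl29 was highest in CTLs, followed by other T cells, CD4 T cells, the Col3a1 cluster, the Siglech cluster, dendritic cells and macrophages. The last 2 steps, from the Siglech cluster to dendritic cells and from these to macrophages, did not exceed counting error. In RARα-KO, the Col3a1 cluster came first and T cells, dendritic cells, the Siglech cluster and macrophages followed at 162 to 322 CPM. Neutrophils, with 1 UMI in RARα-KO, were left out of this order. CTLs, other T cells and CD4 T cells were apart in WT but not in RARα-KO. Macrophages reached 51.0% of the T cell level in RARα-KO (43.0% to 60.1%) and 49.0% in WT (45.6% to 52.5%).

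Ribosomal proteins are made in equal numbers per ribosome, and their transcripts usually move together, so the other 78 genes of cytoplasmic ribosomal proteins were set beside Rpl29. Their median log2 ratio between RARα-KO and WT was -0.15 in CTLs, with a range from -0.32 (Rps7) to 0.22 (Rplp1), against -3.30 for Rpl29. In CD4 T cells the median was 0.07, in macrophages -0.35 and in dendritic cells -0.13, and none of the 78 genes was as low as Rpl29 in any of these 4 cell types. None of them passed 2-fold. In the Col3a1 cluster the median was 0.01, and 14 of the 78 had a lower ratio than Rpl29. As a share of all ribosomal protein UMIs, Rpl29 made up 1.29% in WT CTLs (1.27% to 1.31%), 0.146% in RARα-KO CTLs (0.141% to 0.152%) and 1.16% in RARα-TG CTLs (1.11% to 1.22%). It was the 33rd most abundant of 79 such transcripts in WT CTLs, the 79th in RARα-KO CTLs and the 36th in RARα-TG CTLs. Ribosomal protein transcripts together made up 24.6% of all UMIs in WT CTLs, 22.0% in RARα-KO CTLs and 26.5% in RARα-TG CTLs, so the family as a whole was not low in the way Rpl29 was.

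**Figure D2:**
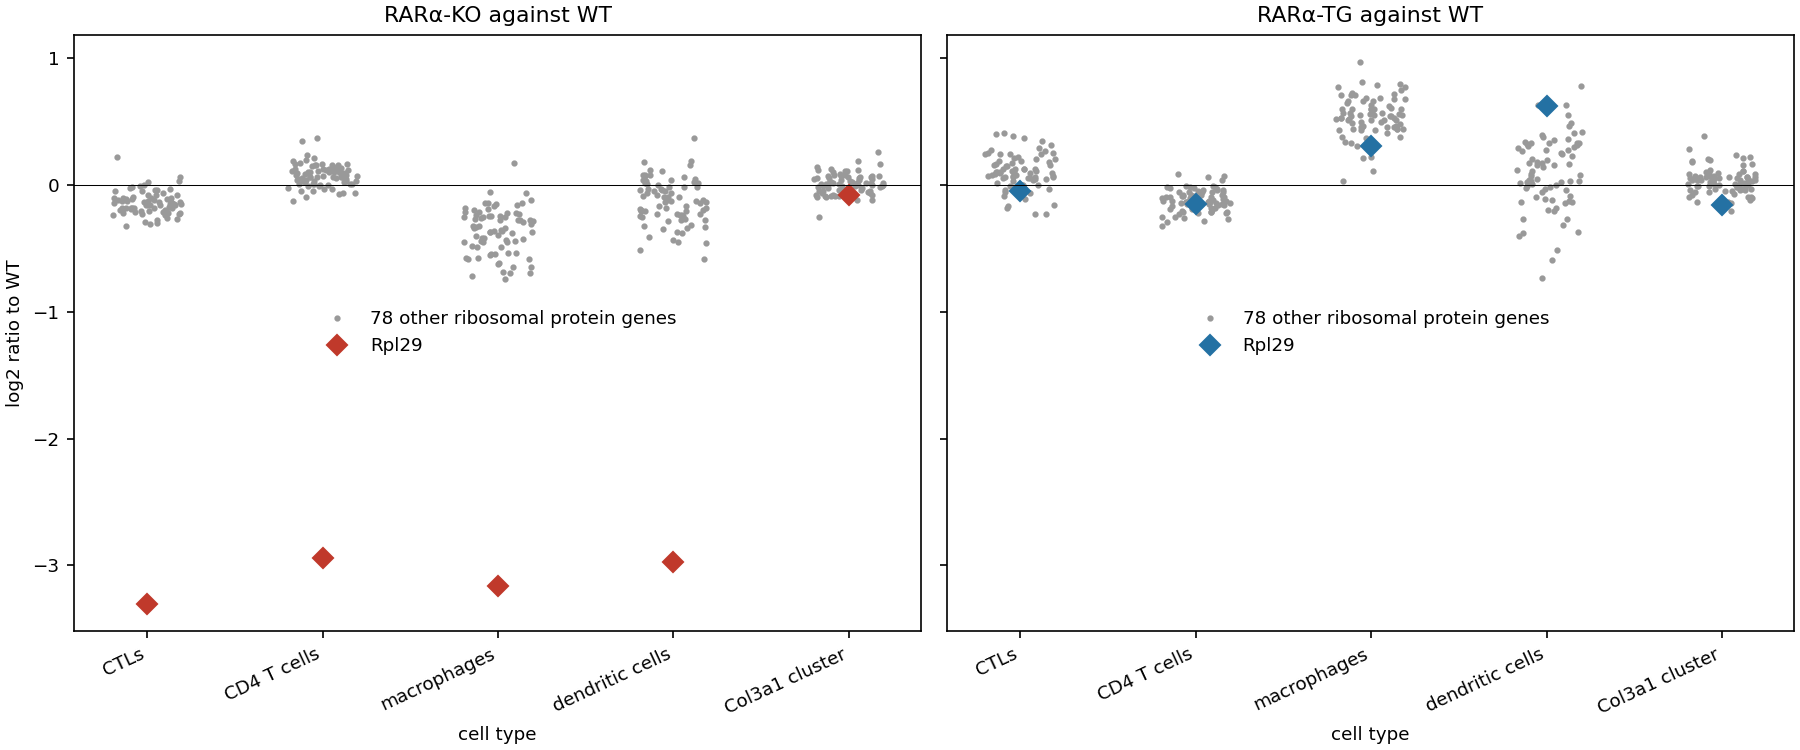
Log2 ratio to WT (y axis) of Rpl29 and of 78 other ribosomal protein genes in 5 cell types, for RARα-KO on the left and RARα-TG on the right. Each gray point is 1 gene and the diamond is Rpl29. In RARα-KO, Rpl29 lies between -3.30 and -2.94 in the 4 host cell types, below every other gene, and at -0.08 in the Col3a1 cluster.

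The 4 lncRNAs had the opposite pattern: they were abundant in RARα-KO T cells and close to absent in WT. Gm43305 had 1 UMI in WT CTLs (0.178 CPM), 874 UMIs in RARα-KO CTLs (108 CPM) and 0 UMIs in RARα-TG CTLs. Gm42031 had 5, 1196 and 0 UMIs in CTLs of WT, RARα-KO and RARα-TG, or 0.891 and 147 CPM in the first 2. The same order was 2, 333 and 0 UMIs for AA465934, and 10, 259 and 2 UMIs for Gm46620. In CTLs, RARα-KO was thus the group with nearly all molecules of each of the 4, from 259 to 1196 UMIs against 10 or fewer in WT. The log2 ratio of RARα-KO to WT CTLs was 9.24 for Gm43305 (6.76 to 14.5), 7.37 for Gm42031 (6.14 to 9.0), 6.85 for AA465934 (4.98 to 9.90) and 4.16 for Gm46620 (3.26 to 5.24). No function is given here for any of the 4, which carry only systematic names.

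These 4 were among the genes that passed 2-fold higher in RARα-KO CTLs, 1.21% of the 6554 genes with enough counts, and Rpl29 was among those that passed 2-fold lower, 1.02%. All ratios in this comparison chose the members, so the counts are no support for the list. Nnt did not reach the minimum of 0.1 UMIs per cell there. CD4 T cells gave the same result: the 4 lncRNAs were past 2-fold higher in RARα-KO, with 1.36% of all genes tested, and Rpl29 was past 2-fold lower, with 2.4%. In CD4 T cells of WT, RARα-KO and RARα-TG, Gm43305 had 0, 79 and 3 UMIs and Gm42031 had 1, 275 and 9. AA465934 had 0, 32 and 2, and Gm46620 had 2, 43 and 1. The fold was 20.1 for Gm43305 and 8.12 for AA465934 when the 0 of WT is replaced by 3 UMIs per group. The exact intervals began at log2 ratios of 3.99 and 2.64. With each cell thinned to 1000 UMIs, AA465934 and Gm46620 were under 2-fold in CD4 T cells (0.80 and 0.22). In the other T cells the 4 were past 2-fold higher (background 1.29%) and Rpl29 past 2-fold lower (1.57%) as well.

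In macrophages, Gm42031 was as much higher in RARα-KO as in T cells, and the other lncRNAs rested on few molecules. Gm42031 had 1 UMI in WT (1.74 CPM), 251 UMIs in RARα-KO (273 CPM) and 0 UMIs in RARα-TG macrophages, a log2 ratio of 7.30 between RARα-KO and WT (4.81 to 12.6). Gm43305 and AA465934 each had 21 UMIs in RARα-KO macrophages and 0 in the other genotypes. With 3 UMIs in place of the 0 of WT, each was 4.39-fold higher in RARα-KO, and the exact interval began at a log2 ratio of 1.71. Gm46620 had 1, 8 and 0 UMIs and was too rare for the minimum of 0.1 UMIs per cell. Thus 3 of the 6 members were past 2-fold higher in RARα-KO macrophages, where the background was 6.82%, and Rpl29 was past 2-fold lower (6.22%). The 80% rule for hashtags keeps cells with 80% or more of their hashtag UMIs from 1 hashtag. Under it the log2 ratio, again with 3 UMIs for the 0, was 0.64 for Gm43305 and 0.76 for AA465934. Both were under 2-fold, so Gm42031 alone remained past it.

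T cell RNA was present in the RARα-KO macrophages. Of the 126 cells, 11 had a T cell receptor clonotype, against 2 of 77 in WT and 1 of 35 in RARα-TG. Trbc2, a constant gene of the T cell receptor, reached 14.3% of its T cell level in RARα-KO macrophages (11.7% to 17.3%), 1.19% in WT and 8.74% in RARα-TG. Gm43305 in RARα-KO macrophages reached 23.0% of its T cell level (14.2% to 35.4%) and Gm46620 27.2% (11.7% to 54.3%), both with intervals that overlap that of Trbc2. AA465934 reached 58.4% (35.7% to 90.4%) and Gm42031 173% (151% to 198%), above the share of Trbc2. When every macrophage with a clonotype or with any Trac, Trbc1 or Trbc2 UMI was left out, a choice made after the data had been seen, 109 RARα-KO macrophages remained. They held 220 UMIs of Gm42031, 15 of AA465934, 13 of Gm43305 and 8 of Gm46620, and Rpl29 stood at 159 CPM against 1436 CPM in the 74 WT macrophages that remained.

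Dendritic cells and the Siglech cluster had the highest levels of Gm42031 and Gm43305, and Trbc2 had 0 UMIs in both. In RARα-KO dendritic cells, Gm42031 had 187 UMIs (752 CPM), Gm43305 36 UMIs (145 CPM), AA465934 9 UMIs and Gm46620 5 UMIs. All 4 had 0 UMIs in the 21 WT dendritic cells and in the 4 RARα-TG dendritic cells. In the 9 RARα-KO cells of the Siglech cluster, Gm42031 had 51 UMIs (806 CPM) and Gm43305 24 UMIs (379 CPM), and the 27 WT cells held 1 and 0. AA465934 and Gm46620 had 0 UMIs in this cluster in all 3 genotypes, where the exact interval of RARα-KO reaches 58.3 CPM. In dendritic cells 3 members passed 2-fold higher (background 9.72%) and Rpl29 passed 2-fold lower (12.2%), with AA465934 under 2-fold by the 80% rule (0.31), and in the Siglech cluster 2 members were higher (6.02%) and Rpl29 lower (9.82%).

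The 4 lncRNAs therefore differed in which RARα-KO cells held most of them. Gm42031 went from 806 CPM in the Siglech cluster and 752 CPM in dendritic cells to 273 CPM in macrophages, 202 CPM in CD4 T cells, 182 CPM in other T cells and 147 CPM in CTLs. Dendritic cells and the Siglech cluster did not differ beyond counting error, nor did CD4 and other T cells, while the other steps exceeded it. Gm43305 went from 379 CPM in the Siglech cluster to 145 CPM in dendritic cells, 108 CPM in CTLs, 88.1 CPM in other T cells, 57.9 CPM in CD4 T cells and 22.9 CPM in macrophages. CTLs could not be told from dendritic cells or from other T cells, and the remaining steps exceeded counting error. AA465934 lay between 22.9 and 45.5 CPM and Gm46620 between 8.72 and 33.2 CPM in T cells, macrophages and dendritic cells. No step between neighbours in the order exceeded counting error, but groups further apart did differ. AA465934 stood at 41.0 CPM in CTLs (36.7 to 45.7), 23.5 CPM in CD4 T cells (16.1 to 33.1) and 22.9 CPM in macrophages (14.2 to 35.0). Gm46620 stood at 31.9 CPM in CTLs (28.1 to 36.0) and 8.72 CPM in macrophages (3.76 to 17.2).

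In the Col3a1 cluster the lncRNAs were found in all 3 tumors. Gm42031 had 142 UMIs in the WT tumor (16.4 CPM), 90 in the RARα-KO tumor (20.7 CPM) and 5 in the RARα-TG tumor (13.3 CPM), with a log2 ratio of RARα-KO to WT of 0.34 (-0.06 to 0.73). Gm43305 had 34, 24 and 6 UMIs, a log2 ratio of 0.49 between RARα-KO and WT (-0.33 to 1.29). Both intervals include 0, in contrast to the host cells. AA465934 had 5, 8 and 1 UMIs, too few to compare. Gm46620 had 52 UMIs in the WT tumor, 13 in the RARα-KO tumor and 1 in the RARα-TG tumor, so it was lower in RARα-KO here (-1.01, -2.01 to -0.11) and higher in RARα-KO T cells. Of the members, 0 passed 2-fold higher in RARα-KO (background 2.35%) and Gm46620 alone passed 2-fold lower (0.761%), a call that rests on the threshold, since the value was -0.74 without the 5% of cells with the most UMIs. In the 19 RARα-TG cells of the cluster, set against WT, Gm43305 was past 2-fold higher (8.66%) and Gm46620 past 2-fold lower (8.48%). Trbc2 in that group of 19 cells was at 8.29% of its T cell level, against 0.726% in RARα-KO and 0.119% in WT, and its part in these values was not tested.

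The same division, on which the members were selected, was described cell by cell. At least 1 UMI of the 4 lncRNAs was found in 22 of 1453 WT T cells (1.51%, 0.951% to 2.28%), in 1024 of 1722 RARα-KO T cells (59.5%, 57.1% to 61.8%) and in 11 of 785 RARα-TG T cells (1.40%, 0.702% to 2.49%), at median depths of 4428, 4920 and 3370 UMIs. The WT and RARα-TG shares were measured in the same way. The WT share is no independent background, because the 4 were selected on the ratio of RARα-KO to WT. The share for other genes was not computed. In RARα-KO T cells, 614 had 1 of the 4 transcripts, 270 had 2, 92 had 3 and 48 had all 4. In WT, 1 T cell had more than 1 of them. The RARα-KO shares of other host cells were 62.7% of macrophages (79 of 126), 24 of 27 dendritic cells and 9 of 9 cells of the Siglech cluster. In the Col3a1 cluster, with a median of 29930 UMIs per cell in WT and 30651 in RARα-KO, the share of cells was 42.1% in the WT tumor, 43.6% in the RARα-KO tumor and 31.6% in the RARα-TG tumor, with overlapping intervals.

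Barcodes without a cell, which sample the free RNA of the pool, held all 5 of these transcripts. In barcodes without a cell, Gm43305 made up 43.4 CPM and Gm42031 50.6 CPM, while WT T cells held 0.125 and 0.878 CPM. Rpl29 in these barcodes stood at 1232 CPM, between the T cell levels of RARα-KO (318 CPM) and WT (2964 CPM).

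Clones of T cells showed how far the division held across the clones of a genotype. A clonotype is a group of T cells with the same receptor, and 10 or more cells were found in 21 WT clonotypes, 27 RARα-KO clonotypes and 3 RARα-TG clonotypes. Rpl29 ranged from 2389 to 3587 CPM over the WT clonotypes (median 3091), from 101 to 541 CPM over those of RARα-KO (median 323) and from 1428 to 2091 CPM over those of RARα-TG. WT and RARα-KO clonotypes did not overlap, and the 3 RARα-TG clonotypes also lay below all those of WT. The members were selected on these T cells, and the share of other genes without overlap was not computed. The summed level of the 4 lncRNAs ranged from 0 to 13.7 CPM in WT, from 83.4 to 667 CPM in RARα-KO and from 0 to 11.2 CPM in RARα-TG, again without overlap between RARα-KO and the others. Gm43305 and Gm42031 were each found in 27 of 27 RARα-KO clonotypes, AA465934 in 26 and Gm46620 in 23. Single lncRNAs were uneven over these clonotypes: Gm43305 ranged from 15.6 to 318 CPM and Gm42031 from 4.54 to 367 CPM. Clonotypes of 1 genotype share their hashtag and library and are not replicates of that genotype.

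**Figure D3:**
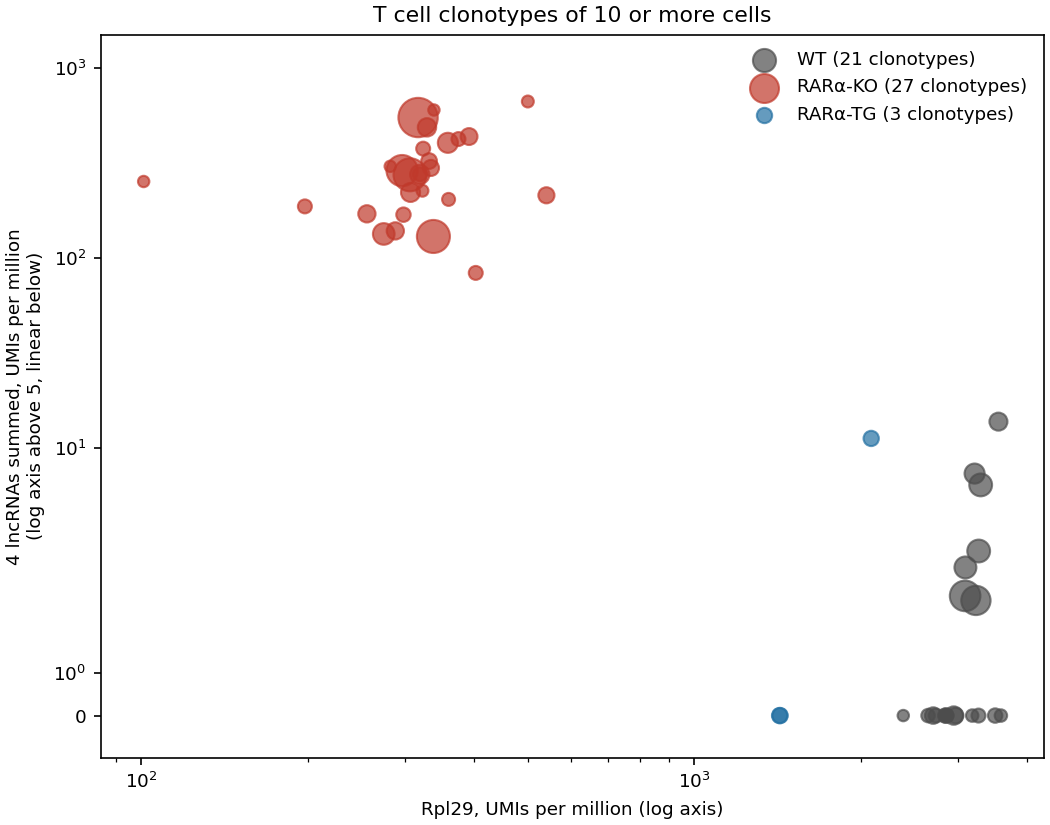
Rpl29 (x axis, log scale) against the sum of Gm43305, Gm42031, AA465934 and Gm46620 (y axis, log above 5 and linear below), both in CPM, for T cell clonotypes of 10 or more cells. Each circle is 1 clonotype and its area grows with the number of cells. The 27 RARα-KO clonotypes have at most 541 CPM of Rpl29 and at least 83.4 CPM of the lncRNAs, and the 21 WT clonotypes have at least 2389 CPM and at most 13.7 CPM.

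For Rpl29, RARα-TG T cells and macrophages were far closer to WT than to RARα-KO. Rpl29 in RARα-TG was 96.8% of WT in CTLs, 90.1% in CD4 T cells and 79.9% in other T cells, but 123% in macrophages. The other ribosomal protein genes had a median log2 ratio of -0.13 in CD4 T cells, where Rpl29 had -0.15, and of 0.54 in macrophages, where Rpl29 had 0.30. The macrophage value of Rpl29 became -0.016 (-0.22 to 0.19) under the 80% rule. None of the members tested passed 2-fold in RARα-TG CTLs, where 4.54% of genes were higher and 5.56% lower, though only Rpl29 had enough counts to be tested. The same held in CD4 T cells (2.04% higher, 2.1% lower), other T cells (2.02% and 2.26%), macrophages (10.4% and 11.9%), dendritic cells (10.4% and 5.62%) and the Siglech cluster (7.7% and 11.1%). For the lncRNAs, the log2 ratio of RARα-TG to WT T cells was 5.22 for Gm43305 (2.52 to 10.6) and 3.15 for Gm42031 (1.90 to 4.61). It was 2.64 for AA465934 (0.03 to 6.03) and -0.38 for Gm46620 (-2.46 to 1.31). These ratios rest on few molecules and few cells. The T cells of RARα-TG held 49 UMIs of the 4 lncRNAs, against 23 in WT T cells. Of the 49 UMIs, 41 lay in 3 cells with 3 or more each. Those 3 cells had 585 CPM of Rpl29, against 2283 CPM in the RARα-TG T cells that had none of the 4.

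Nnt did not separate the genotypes. The row of ENSMUSG00000025453 had 14, 16 and 2 UMIs in T cells of WT, RARα-KO and RARα-TG, or 1.76, 1.52 and 0.625 CPM. The log2 ratio of RARα-KO to WT T cells was -0.21 (-1.34 to 0.94). CD4 T cells held 7, 1 and 0 UMIs, with an interval for RARα-KO below 0 (-3.20, -8.69 to -0.24) and one for RARα-TG of at most -0.74. CTLs held 5, 13 and 0 UMIs, with the higher value in RARα-KO (0.85, -0.73 to 2.69). Macrophages had 0, 0 and 1 UMIs and dendritic cells 0 in all 3 genotypes. The Col3a1 cluster had 16, 5 and 1 UMIs (1.85, 1.15 and 2.67 CPM). A second row with the symbol Nnt, ENSMUSG00000116207, had 0 UMIs in every group. The reads were aligned to mm10, the genome of a C57BL/6J mouse. At levels of a few CPM, with directions that differed between CD4 T cells and CTLs, these counts did not show a difference in Nnt shared by all host cells, and the positions of the reads along the gene were not examined.

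Genes that work beside Nnt in mitochondria, in the supply of NADPH and the removal of peroxide, were described as a group of 16. In CTLs 14 of them had a ratio, with a median log2 ratio to WT of 0.09 in RARα-KO and 0.02 in RARα-TG, near the median of all genes (0.02 and 0.01). In RARα-KO CTLs the interval lay above 0 for 2 of the 14 and below 0 for 1, and none passed 2-fold. Idh2, the mitochondrial isocitrate dehydrogenase that makes NADPH, had the highest value (24 and 51 UMIs, 0.56, -0.17 to 1.32). Me2, a malic enzyme of mitochondria, had 0.15 (-0.06 to 0.36), and Txnrd2, the mitochondrial thioredoxin reductase, had -0.22 (-0.58 to 0.14).

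Other genes at which C57BL/6J and C57BL/6N mice are known to differ were Wdfy1, Ide, Entpd4, Crb1, Cyfip2 and Nlrp12. With Nnt, 4 of these had a ratio in CTLs, all between 0.05 and 0.85 in RARα-KO against WT, and none passed 2-fold. In CD4 T cells 1 of 4 had an interval above 0, and Nnt alone was past 2-fold lower. In macrophages 2 had a ratio, and neither passed 2-fold. In dendritic cells Wdfy1 stood at -1.60, with an interval that includes 0. The Col3a1 cluster had 1 gene of 4 past 2-fold higher, Cyfip2 at 3.32. Wdfy1 had 64.7 CPM in WT CTLs (363 UMIs), 68.5 CPM in RARα-KO CTLs (556 UMIs) and 28.2 CPM in RARα-TG CTLs (17 UMIs). RARα-TG was the low group for Wdfy1, with a log2 ratio to WT of -1.20 (-1.99 to -0.50), while RARα-KO and WT could not be told apart (0.08, -0.11 to 0.28). These counts measure the level of a transcript and not its sequence.

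The whole matrix was then asked which genes differ in T cells and in macrophages at once. Of 5313 genes with enough counts in both, 4 were past 4-fold higher in RARα-KO in CTLs and in macrophages (0.0753%) and 2 past 4-fold lower (0.0376%). The higher genes were Gm42031, Gm43305, AA465934 and Hspa1b, and the lower ones were Rpl29 and Trim12a, so 4 of the 6 are members. These 6 genes lie on 6 chromosomes. The members were selected on the ratios used here, so their presence is no support for the list. In macrophages the 3 lncRNAs reached the minimum level only through RARα-KO, with 1 UMI of Gm42031 and 0 of the others in WT. With each cell thinned to 1000 UMIs 3 genes were left, and with the 80% rule for hashtags 4 genes passed, of which Gm42031 and Rpl29 were shared with the first set. In the Col3a1 cluster 5 of the 6 were within 2-fold between RARα-KO and WT, and the exception was AA465934, with 8 and 5 UMIs.

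Trim12a, a member of the tripartite motif family, had 231 UMIs in WT T cells (29.0 CPM), 0 in RARα-KO T cells and 76 in RARα-TG T cells (23.7 CPM). It also had 11, 0 and 1 UMIs in macrophages, 5, 0 and 0 in dendritic cells and 9, 0 and 7 in the Siglech cluster. RARα-KO host cells of these types thus held none, and in T cells the level was 102-fold lower than in WT with 3 UMIs in place of 0. In the Col3a1 cluster it had 60, 54 and 2 UMIs, and the RARα-KO tumor was not lower (0.84, 0.28 to 1.40). Hspa1b, an inducible heat shock protein of the Hsp70 family, was different. WT CTLs had 57.5 CPM of it, RARα-KO CTLs 270 CPM and RARα-TG CTLs 280 CPM, so both other genotypes stood above WT.

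**Figure D4:**
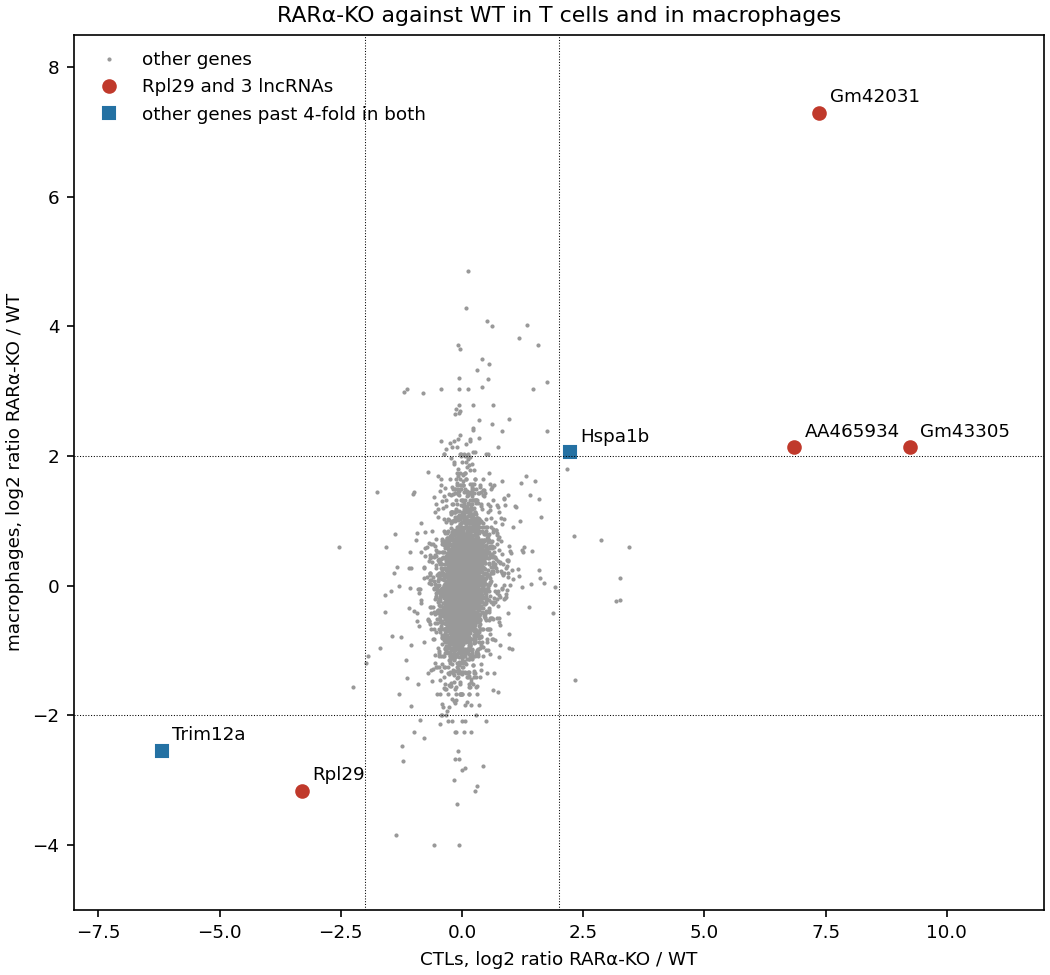
Log2 ratio of RARα-KO to WT in CTLs (x axis) and macrophages (y axis) for 5313 genes. Dotted lines mark 4-fold, and a group with 0 UMIs is set to 3 UMIs. Red circles are Rpl29 and the 3 lncRNAs with enough counts in both cell types, blue squares are Hspa1b and Trim12a, and these 6 genes are the ones past 4-fold in the same direction on both axes with intervals that exclude 0.

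Most genes measured near the members on the chromosome did not share the change. Antigen receptor V, D and J segments were left out of these neighbours. Within 1 Mb of Rpl29, 21 genes had 50 or more UMIs in WT and RARα-KO CTLs together, and none differed 4-fold between them (median log2 ratio 0.14, range -0.91 to 0.92). The nearest, Acy1 at 1.41 kb, had 36 and 79 UMIs (0.60, 0.02 to 1.21). Around Gm43305 there were 15 such genes, of 194 annotated within 1 Mb (median 0.02), and around Gm42031 33 (median 0.00), again with none past 4-fold. Dad1, 38.5 kb from Gm43305, had 401 CPM in WT and 450 CPM in RARα-KO CTLs, and Man2b1, 27.2 kb from Gm42031, had 83.9 and 89.1 CPM. Around AA465934, 2 of 23 genes were past 4-fold higher in RARα-KO, the chemokine genes Ccl3 and Ccl4, and the median was 0.02. None of the 5 measured genes around Nnt differed 4-fold.

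**Figure D5:**
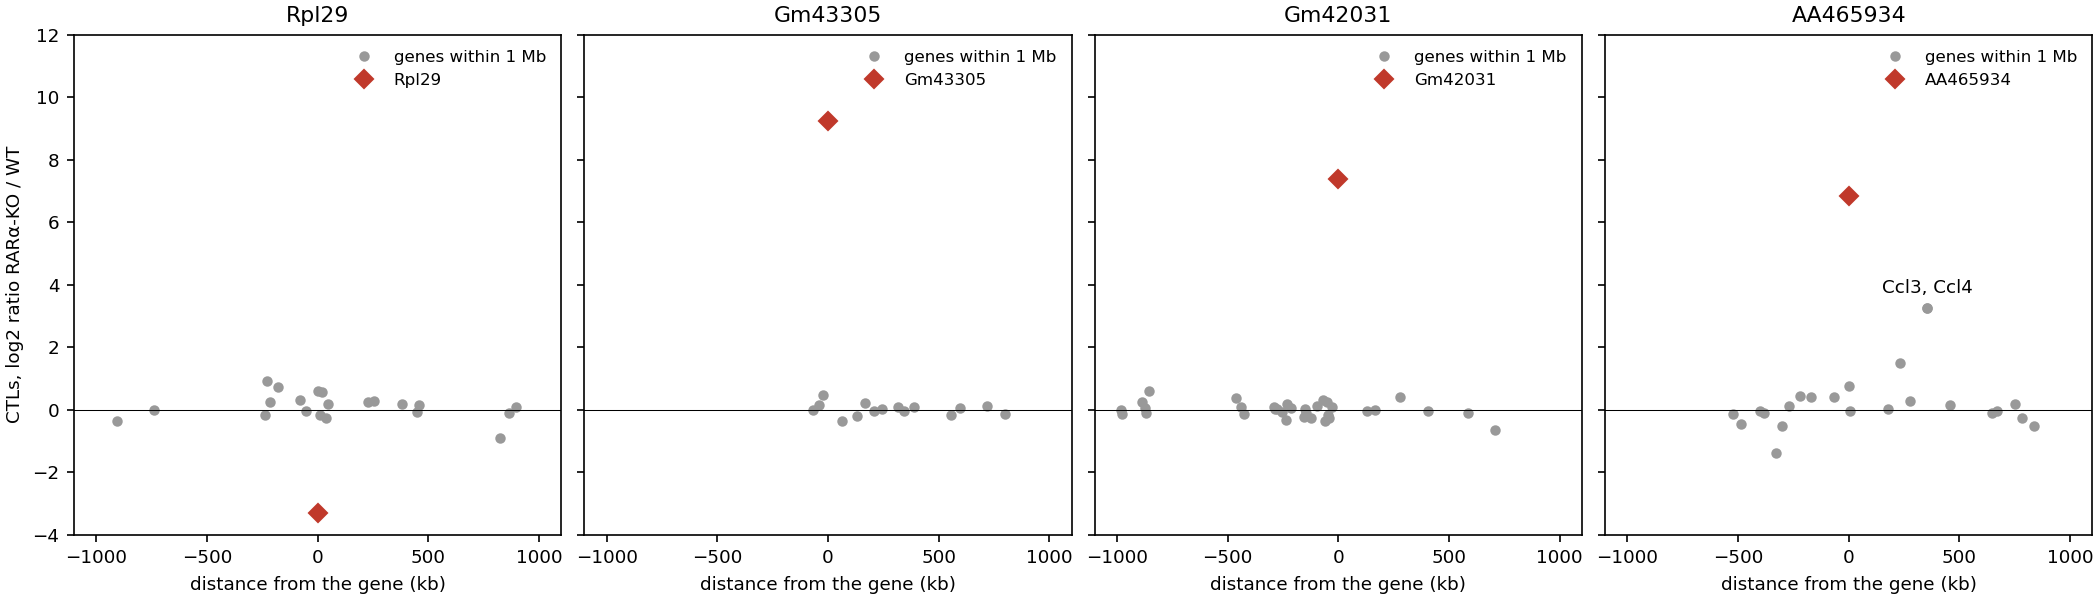
Log2 ratio of RARα-KO to WT in CTLs (y axis) of genes within 1 Mb of Rpl29, Gm43305, Gm42031 and AA465934, by distance from the gene in kb (x axis). Gray points are genes with 50 or more UMIs, without antigen receptor segments, and the diamond at 0 is the member. Apart from Ccl3 and Ccl4 near AA465934, every neighbour shown lies within 4-fold.

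Over the 15 groups of a cell type and genotype with 30 or more cells, the genes with the profile most like each member were found by Pearson's r of log2(CPM + 10), as a description. Gm43305 was most like AA465934 (r = 0.98), Gm46620 (0.96) and Gm49980 (0.95), and AA465934 and Gm46620 named each other and Gm43305 in return. Gm42031 was most like AA465934 (0.84), Gm43305 (0.81) and Gm49980 (0.77). These groups share 1 library, and the RARα-KO host groups are few. The members were selected on ratios between these genotypes, so a high r among the lncRNAs was fixed in advance and is no support for the list. Gm49980 had 0, 107 and 4 UMIs in T cells of WT, RARα-KO and RARα-TG, and 27, 17 and 0 in the Col3a1 cluster. Gm4316, the gene most like Gm46620 after the members (0.90), had 49, 524 and 31 UMIs in T cells and 90, 30 and 3 in the Col3a1 cluster. The profile of Rpl29 was most like those of Gm47283 (0.90), Cyp51 (0.90) and Hnrnpab (0.89). Gm47283 had 30.2, 6.55 and 23.7 CPM in T cells of WT, RARα-KO and RARα-TG and 14.3, 22.6 and 42.7 CPM in the Col3a1 cluster. Cyp51, a sterol demethylase of cholesterol synthesis, was lower in RARα-KO in T cells (72.8, 37.4 and 98.7 CPM) and in the Col3a1 cluster (211, 84.7 and 168 CPM), while Rpl29 in the Col3a1 cluster differed by only -0.08.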

How the data were processed

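The authors aligned the 5′ single-cell reads to mm10 (GRCm38) and deposited raw UMI counts of genes and of 3 hashtags for all barcodes, beside TCR contigs with UMI counts. The submitters' processing notes name Cell Ranger 6.1.0, and the matrix header names another major version. Some labels give spleen and naive CD8 T cells, while the protocols give tumors, which were taken as the source. All columns used belong to the pooled library.

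Cells were called anew in Python 3.11.15 (3000 expected cells, then barcodes with 500 or more UMIs at a false discovery rate of 0.01), which gave 5586 cells with 96.4% of UMIs. Genotypes came from HTODemux (Seurat 5.3.0, quantile 0.99), with 426 doublets and 230 negatives left out. Doublets within a genotype were not removed. Clusters came from scanpy 1.11.5 (Leiden, resolution 1, 30 components). T cell clusters had a clonotype in over 50% of cells. CD4 T cells had neither Cd8a nor Cd8b1 UMIs.

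With 1 sample per genotype no test was run and no p-value is given. Levels have exact Poisson intervals, shares Clopper-Pearson intervals and ratios exact binomial intervals, all at 95% and for counting error only. PCR duplicates are collapsed by UMI. The background took genes that reached 0.1 UMIs per cell in either genotype, without antigen receptor segments. A count of 0 was set to 3 UMIs per group in a ratio. In simulated counts for 5387 genes of CTLs, 95.2% of the intervals held the true ratio.

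The members, lists and rules were chosen with earlier results of these data known. The genes named were the members, those past 4-fold in CTLs and macrophages, the 3 nearest profiles per member, neighbours within 1 Mb past 4-fold, and members of the lists. Acy1, Dad1 and Man2b1 were named after their values were seen. Positions are those of RefSeq in GRCm38.p6.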

Additional observations from a re-analysis of the deposited data

Results flagged for a closer look

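The ratio of Gm46620 between RARα-KO and WT had opposite signs in different cells. CTLs gave a log2 ratio of 4.16 and CD4 T cells one of 4.03, but the Col3a1 cluster gave -1.01, where the interval (-2.01 to -0.11) came close to 0. The difference between these ratios was not tested.

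The ratio of Rpl29 between RARα-TG and WT also changed sign, on a much smaller scale. It was -0.15 in CD4 T cells and -0.16 in the Col3a1 cluster, and 0.30 in macrophages and 0.62 in dendritic cells, of which RARα-TG had 4. The median of the other 78 ribosomal protein genes was -0.13, 0.04, 0.54 and 0.10 in the same order of cell types. The difference was not tested.

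Members of the lncRNA group were also found in T cells that no comparison used. In the 297 T cells with more than 1 hashtag, Gm43305 stood at 56.2 CPM, Gm42031 at 83.9 CPM, AA465934 at 19.9 CPM and Gm46620 at 21.3 CPM. In the 54 T cells without a hashtag, Gm43305 stood at 87.0 CPM, Gm42031 at 29.0 CPM and AA465934 at 48.3 CPM. Gm46620 had 0 UMIs there, with an exact interval up to 35.7 CPM. The values above 0 lay above WT T cells beyond counting error. Rpl29 was at 1580 CPM in the first group and 1305 CPM in the second, between the RARα-KO and WT levels.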

How the results depend on the processing

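No paired analysis was possible because each genotype is 1 part of a single pooled library without replicates. Values are log2 ratios of RARα-KO to WT unless named, and many rest on 3 UMIs in place of a 0, since WT cells held 0 UMIs. The log2 ratio of Rpl29 ranged over the settings from -3.41 to -3.13 in CTLs, -2.96 to -2.88 in CD4 T cells, -3.36 to -2.25 in macrophages, -3.00 to -2.55 in dendritic cells and -0.10 to -0.01 in the Col3a1 cluster. Of the values in these comparisons, 164 stayed within their counting interval, or a count within 1.5 times. Those that moved further are given next. Changes of sign were seen in the Col3a1 cluster and in RARα-TG macrophages.

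With each cell thinned to 1000 UMIs, Rpl29 gave -2.25 in macrophages, -2.55 in dendritic cells and -0.0068 in the Col3a1 cluster. Gm43305 gave 4.83 in CTLs, and Gm42031 gave 3.89 in CD4 T cells, 3.96 in macrophages and 2.57 in dendritic cells. AA465934 gave 0.80 in CD4 T cells, and Gm46620 gave 2.74 in CTLs and 0.22 in CD4 T cells. Rpl29 minus the median of the other ribosomal protein genes was -1.92 in macrophages and changed sign to 0.033 in the Col3a1 cluster. The genes past 4-fold in CTLs and macrophages numbered 3.

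With cells whose main hashtag held 80% or more of hashtag UMIs, Rpl29 gave -3.22 in CTLs (-3.07 after the ribosomal median) and, for RARα-TG macrophages, -0.016, a change of sign. Gm43305 gave 3.94 in CD4 T cells, 0.64 in macrophages and 2.31 in dendritic cells. Gm42031 gave 4.69 in dendritic cells and -0.21, a change of sign, in the Col3a1 cluster, where Nnt also changed sign, to 0.26, and AA465934 gave 0.76 in macrophages and 0.31 in dendritic cells.

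Without the 5% of cells with the most UMIs, Gm43305 gave 3.43 in CD4 T cells and 1.46 in macrophages. As a mean of the cells' shares, Rpl29 gave -2.63 and Gm42031 4.71 in macrophages, and Gm42031 in RARα-TG changed sign to 1.09 in the Col3a1 cluster. With each clonotype weighted equally, CTLs gave -3.41 for Rpl29, 10.2 for AA465934 and 2.82 for Gm46620. With T cells taken by receptor alone, Rpl29 gave -3.13 in CTLs. At 8-fold, 2 genes passed in CTLs and macrophages, and with no minimum level 8. In cells without any T cell receptor counts, a choice made after the data were seen, Gm43305 gave 1.69 in macrophages and -0.36 in the Col3a1 cluster, and Gm42031 gave -0.070 in the Col3a1 cluster, the last 2 with a change of sign. The cause of these shifts was not tested, and a thinned or smaller group holds fewer UMIs by construction.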

Other observations

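The strength of the hashtag call differed between genotypes. HTODemux and the rule of 80% of hashtag UMIs never gave a cell different genotypes, but 886 of 1928 WT cells had a top hashtag under 80%, while this was so for 4 of the 2107 RARα-KO cells and for 67 of the 895 RARα-TG cells. In the 552 WT T cells under 80%, Rpl29 stood at 3183 CPM and the 4 lncRNAs held 5 UMIs, and in the 901 WT T cells at or above 80% Rpl29 stood at 2874 CPM and the lncRNAs held 18 UMIs. RARα-KO T cells stood at 318 CPM of Rpl29. The members were selected on groups made from these hashtags. WT and RARα-TG T cells held the 4 lncRNAs in 1.51% and 1.40% of cells, so these values do not check the hashtag calls.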
